A study of Homo sapiens with 4 samples.

Results

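ETV1, ETV4, ETV5 and ERG encode transcription factors of the ETS family, whose DNA-binding domain recognises a core of GGAA. ETV1, ETV4 and ETV5 form the PEA3 subfamily, are induced by receptor tyrosine kinase and MAPK signalling, and are held down by the repressor Capicua (CIC), which binds octamers such as TGAATGGA and TGAATGAA. ERG belongs to a separate subfamily with FLI1 and is normally a factor of endothelial and blood cells. In prostate cancer these genes are placed under androgen-driven control by chromosomal rearrangement, most often a fusion of TMPRSS2 with ERG. LNCaP cells lack that fusion and carry ETV1 inserted into the MIPOL1 region of another chromosome. ETV1 keeps its reference coordinates in these data, so the lists do not show its rearranged neighbourhood.

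Open chromatin was profiled by ATAC-seq, a method that tags accessible DNA with a transposase, in 2 libraries of LNCaP, a prostate cancer cell line whose genotype the labels give as WT, and in 2 libraries of the derived line that the labels call LNCaP-resistance and describe as treated with enzalutamide, an androgen receptor antagonist. The resistant line was selected from LNCaP in rising doses of enzalutamide after adaptation to charcoal-stripped serum, whereas the sample labels give ordinary serum for both lines. Sublines were made at several doses, and the labels do not say which of them was profiled. Nothing in the sources used here says that the libraries of a group came from separate cultures. The data are 1 list of peak summits per library, that is, the position of highest signal in each peak with a score that is the −log10 of either a p-value or a q-value. The 4 genes, of 59679 in the annotation on the main chromosomes, were taken by name. All summits in each gene body and in the 50 kb on either side were used, which is called the window of the gene here. The 4 windows held 52, 49, 26 and 15 summits of LNCaP replicates 1 and 2 and resistant replicates 1 and 2, of 117245, 107344, 70866 and 45618 in the whole lists.

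Read counts are not part of the lists. The depth is therefore unknown, and a summit missed for lack of reads cannot be told apart from one that is absent. Resistant replicate 2 had the shortest list, and both resistant lists were shorter than both LNCaP lists, so list length and cell line cannot be told apart. Scores were therefore ranked within each library, and the percentile of a summit states what percent of the summits in its library scored no higher. Of 9 luminal prostate markers, 8 had a summit within 3 kb of the gene end searched in each of the 4 libraries. Among these, KRT8 and KRT18 had identical percentiles in every library and may share a summit, so they are not independent. KLK3, a defining luminal gene, had none in any library. The leukocyte marker PTPRC and the basal marker KRT5 had none either, whereas both endothelial markers, PECAM1 and CDH5, had a summit in every library. CD3E, the other leukocyte marker, reached 76.3 and 68.0 in LNCaP but 26.4 and 16.8 in the resistant libraries, and COL1A2, a fibroblast marker, 63.0 and 55.3 but 37.1 and 17.5. PDGFRB, the other fibroblast marker, was at 25.1 and 39.3 in LNCaP and had no summit in the resistant libraries. Of the endothelial markers, CDH5 went from 90.5 and 90.1 to 85.6 and 86.0. PECAM1 was at 69.9 and 44.6 in LNCaP and at 51.1 and 33.5 in the resistant libraries, so the groups overlapped. The luminal factor FOXA1 moved the other way, from 38.5 and 52 to 87.6 and 86.0. Of 3 basal markers 2, 1, 1 and 1 had a summit in the libraries in the order above, and of 2 fibroblast markers 2, 2, 1 and 1. The part of such differences in the results was not tested. An exact two-sided permutation test of 2 against 2 libraries cannot give a p below 0.333, so differences are set against the pooled SD between replicates and against the same measure over all genes or regions.

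Summits of the 4 libraries lying close together were merged into regions after widening each by 250 bp on either side, which gave 63 regions in the 4 windows of 150917 on the main chromosomes. A region is called LNCaP-only where the LNCaP libraries each had a summit and the resistant ones had none, resistant-only in the reverse case, and shared where all 4 libraries had one. The 4 windows held 23 LNCaP-only, 2 resistant-only and 11 shared regions, and in the other 27, or 42.9% against 47.6% of all regions, the libraries of a cell line differed. LNCaP-only regions thus made up 36.5% of the regions in the windows and 27.5% of all regions. Resistant-only regions made up 3.17% in the windows and 3.84% in the genome, and shared regions 17.5% and 21.1%. Within 3 kb of the genes' 5′ ends there were 9 regions, of which 1 was LNCaP-only, 1 resistant-only and 3 shared. Farther away there were 54 regions, of which 22 were LNCaP-only, 1 resistant-only and 8 shared. All regions of the lists were not split by distance in this way. The split is therefore not shown to be particular to these genes. The counts changed with the length of the lists. Without resistant replicate 2 there were 6 resistant-only and 18 shared regions, and when every library was reduced to its 45618 highest-scoring summits there were 8 LNCaP-only, 4 resistant-only and 8 shared regions, where 17.1%, 14.9% and 26.8% of all regions fell in these classes. Of the 10 LNCaP-only regions with a mean percentile of at least 50, 5 stayed LNCaP-only in these lists, 1 each at ETV1 and ETV5 and 3 at ERG. In the other 5 a LNCaP library lost its summit. The 2 resistant-only regions stayed so.

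**Figure D1:**
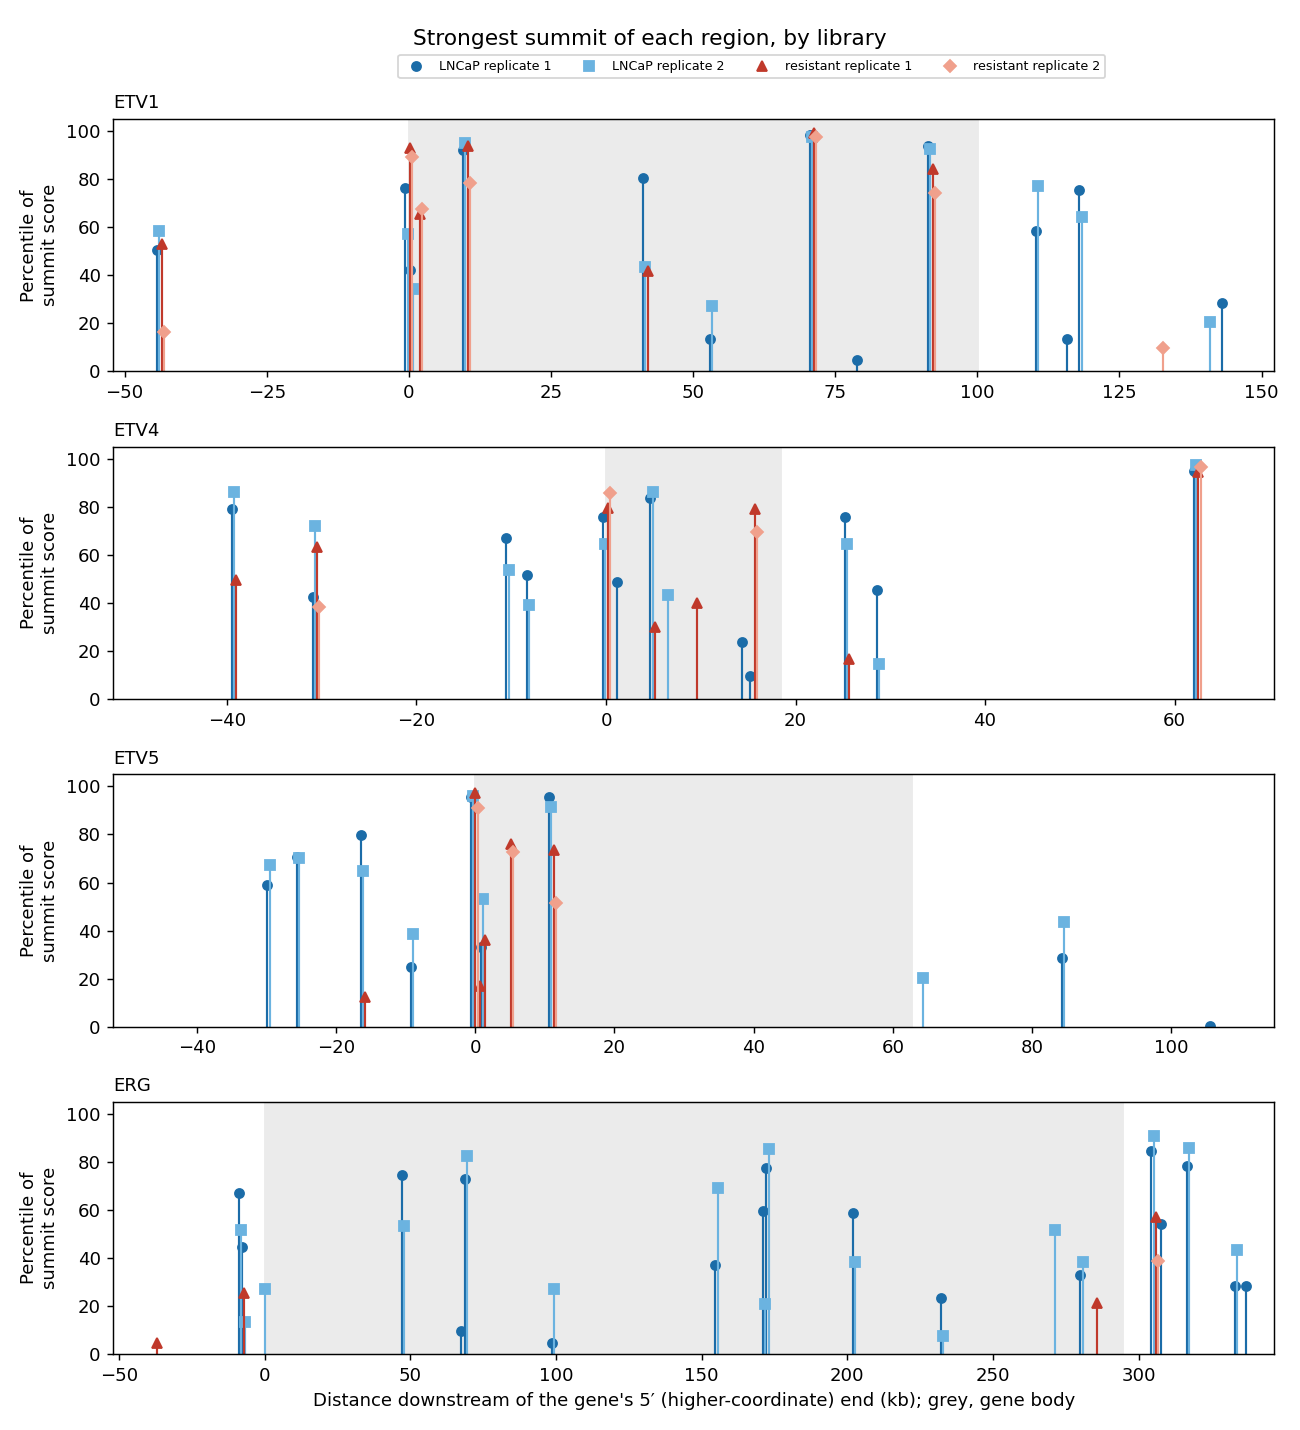
Percentile of the strongest summit of each region (vertical axis, 0 to 100, no point where a library had no summit) against distance from the 5′ end of the gene in kb (horizontal axis, positive within and beyond the gene, grey for the gene body), with 1 panel per gene. Points of the 4 libraries in a region are drawn side by side for legibility. The ETV1, ETV4 and ETV5 panels have high points of all 4 libraries at the 5′ end, whereas the ERG gene body carries LNCaP points with 1 resistant point.

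ETV1 occupies positions 13891229 to 13991425 of chromosome 7 (GRCh38). It is read toward lower coordinates and begins at the higher one. RefSeq lists several starts of transcription near this end. The strongest summits of all 4 libraries lay within 33 bp of the outermost start, and weaker summits of the cell lines fell at different inner starts. The 250 bases before 3 of these starts are shown because a summit that differed between the cell lines in percentile or presence lay close to each. They are given 5′ to 3′ on the minus strand of GRCh38.p14 as in RefSeq, with the ETS core GGAA, or TTCC on the other strand, in capitals.
ETV1 start at 13991425, chr7:13991426-13991675: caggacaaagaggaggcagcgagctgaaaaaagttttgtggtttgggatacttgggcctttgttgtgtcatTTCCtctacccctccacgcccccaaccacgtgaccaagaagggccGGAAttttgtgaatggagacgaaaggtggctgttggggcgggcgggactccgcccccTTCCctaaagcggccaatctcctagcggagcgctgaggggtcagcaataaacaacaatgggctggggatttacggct
ETV1 start at 13990702, chr7:13990703-13990952: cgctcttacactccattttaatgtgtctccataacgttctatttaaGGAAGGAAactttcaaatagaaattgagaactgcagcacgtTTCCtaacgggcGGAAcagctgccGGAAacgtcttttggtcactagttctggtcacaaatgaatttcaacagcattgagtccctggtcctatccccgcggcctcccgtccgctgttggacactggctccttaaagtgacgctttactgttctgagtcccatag
ETV1 start at 13989666, chr7:13989667-13989916: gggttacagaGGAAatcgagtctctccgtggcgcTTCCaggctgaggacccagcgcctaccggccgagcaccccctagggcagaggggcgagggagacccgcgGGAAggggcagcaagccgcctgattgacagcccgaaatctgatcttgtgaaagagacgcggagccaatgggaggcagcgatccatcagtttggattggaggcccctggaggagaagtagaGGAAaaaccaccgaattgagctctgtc
Counting both strands and overlapping matches, the core was found 3, 5 and 4 times in these sequences. At least 1 match was found in 92.7% of the 35116 RefSeq promoter stretches of this length, so its presence sets none of the 3 apart. The CIC octamer TGAATGGA occurred in the sequence before the outermost start, beginning at position -125 from the start, and in neither of the other two. TGAATGGA on either strand was found in 0.832% of all stretches, TGAATGAA in 1.40%, and at least 1 of the 2 octamers in 2.19%. The androgen receptor half-site TGTTCT occurred in the sequence before the start at 13990702, at position -17, and in 12.4% of all stretches. These are matches of letters and not shown to be bound.

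At the outermost ETV1 start, the strongest summit scored 24.2 and 12.3 in LNCaP and 80.2 and 42.4 in the resistant libraries. Its percentiles were 76.2 and 57.0 in LNCaP and 93.0 and 89.1 in the resistant libraries, so the groups did not overlap and the resistant libraries were the higher ones. LNCaP averaged 66.6 ± 13.5 (SD, n = 2) and the resistant cells 91.0 ± 2.75 (SD, n = 2). The difference of 24.4 points exceeded the pooled SD of 9.76, and it was 16.8 points within repeat 1 and 32.1 points within repeat 2. Of 20037 protein-coding genes, 20.5% had 5′ percentiles that were higher in both resistant libraries and 20.5% had lower ones. Among the 12968 genes with such a summit in all 4 libraries, 95.5% changed by as much as ETV1 or less in this direction, with a median of 0.0774 points. When lists were cut to equal length, LNCaP was at 38.7 and 0, the second list having no summit there, and each resistant library at 89.1. The change was then 69.7 points beside a median of 15.3 for these genes, with 97.8% of them at or below ETV1.

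The LNCaP summit of the next region lay 71 bp and 186 bp downstream of the start at 13990702, at percentiles 42.2 and 34.2. Neither resistant library had a summit in that region. Farther into the gene the reverse was seen. A resistant-only region on chromosome 7 from 13989483 to 13989988 had summits 67 bp and 72 bp upstream of the start at 13989666, with scores of 26.6 and 19.2 at percentiles 65.6 and 67.7. No LNCaP list had a summit there, although these lists were longer. The 3 neighbouring regions at the ETV1 5′ end therefore differed in direction, with the outermost higher in the resistant libraries, the middle found in LNCaP alone and the innermost in the resistant libraries alone. This separation needs narrow regions, since ETV1 had 0 resistant-only and 3 LNCaP-only regions when summits were widened by 500 bp. The LNCaP percentiles of the middle region were below 50, and both resistant lists were shorter. Its LNCaP summits scored 9.61 and 7.04, so a minimum score of 10 removed them. In lists of equal length ETV1 kept 1 LNCaP-only region, which lay 119 kb from the 5′ end. The middle region was thus LNCaP-only under neither alternative.

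**Figure D2:**
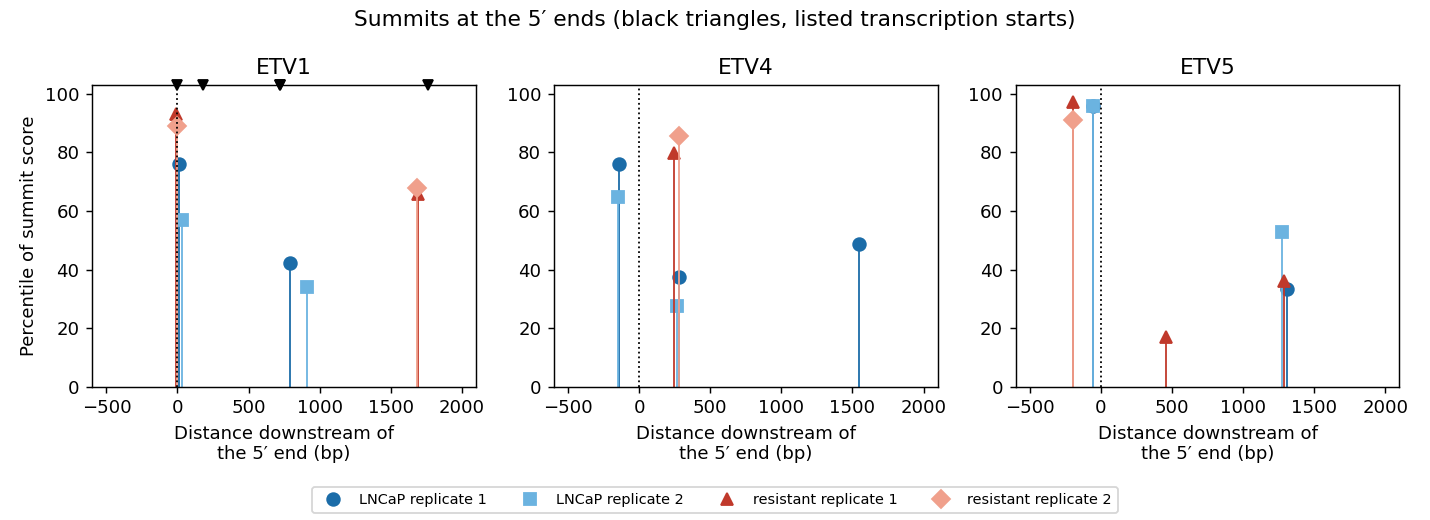
Percentile of every summit (vertical axis) within the plotted distance of the 5′ end of ETV1, ETV4 and ETV5 (horizontal axis, bp, positive within the gene), with 1 point per summit and library. Black triangles mark starts of transcription listed for ETV1, and the dotted line the end of the annotated gene. The resistant libraries alone have a point near the innermost ETV1 start, and at ETV4 and ETV5 the strongest summits of the cell lines lie at different positions.

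Inside ETV1, the strongest region of the window was found in every library, 71.1 kb from the 5′ end. Its percentiles were 98.5 and 97.5 in LNCaP and 99.3 and 97.5 in the resistant libraries, a change of 0.452 points that was within the pooled SD of 1.04. The region 10.2 kb inside the gene was at 92.3 and 95.0 against 93.7 and 78.2, so the groups overlapped. The region 91.9 kb inside, toward the 3′ end, was lower in the resistant libraries, at 84.5 and 74.3 against 93.8 and 92.6 in LNCaP. Its change of -13.8 points exceeded the pooled SD of 5.10. Of all shared regions, 41.8% were lower in both resistant libraries and 17.7% higher, and 33.7% were lower by at least 10 points. Beyond the 3′ end, a region 111 kb and another 119 kb from the 5′ end were LNCaP-only. Their LNCaP percentiles were 58.6 and 77.4 for the nearer region and 75.5 and 64.3 for the farther. The nearer kept a summit in LNCaP replicate 2 alone in lists of equal length. The farther of these, on chromosome 7 from 13872603 to 13873160, lies 325 bp from an end of the pseudogene RPL26P21.

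ETV4, the founding PEA3 gene, lies on chromosome 17 from 43527846 to 43546340, is transcribed toward lower coordinates and overlaps DHX8, an RNA helicase gene on the other strand, over most of its length. The strongest summit at its 5′ end reached percentiles 75.9 and 64.6 in LNCaP, below the 79.7 and 85.7 of the resistant libraries. LNCaP averaged 70.3 ± 7.96 (SD, n = 2) and the resistant cells 82.7 ± 4.26 (SD, n = 2), and the difference of 12.5 points exceeded the pooled SD of 6.39. It was 3.81 points within repeat 1 and 21.1 points within repeat 2. Of the 12968 genes with such a summit in all 4 libraries, 87.8% changed by as much as ETV4 or less, with a median of 0.0774 points. In lists of equal length the ETV4 difference rose to 49.7 points. The same genes then changed by a median of 15.3 points, and 88.1% of them changed by as much or less.

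The ETV4 summits of the cell lines were at separate sites. In LNCaP the strongest lay 145 bp and 152 bp upstream of the gene end, and neither resistant library had a summit there. In the resistant libraries the strongest lay 247 bp and 282 bp inside the gene. At that inner site the LNCaP libraries had weaker summits, at percentiles 37.3 and 27.6, so that the inner site changed by 50.2 points, with 5.71 as the pooled SD. ETV5 showed a smaller displacement, with the summit 53 bp and 54 bp upstream of the gene end in LNCaP and 193 bp and 194 bp upstream of it in the resistant libraries. The positions of the cell lines did not overlap in 8 of the 11 shared regions of the windows, against 39% of all shared regions. In 5.35% of all shared regions the summits of the cell lines were separated by at least 100 bp, and this was the case in 2 of the 11, namely these at ETV4 and ETV5. They were singled out after their values were seen.

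A region inside ETV4 and DHX8, 15.6 kb from the ETV4 5′ end on chromosome 17 from 43530327 to 43531172, was at percentiles 79.3 and 69.6 in the resistant libraries. LNCaP replicate 1 had a summit at percentile 9.47 at its edge and LNCaP replicate 2 had none. It was also singled out after its values were seen, and it became resistant-only when summits were widened by 100 bp. A region 5.04 kb inside ETV4 moved the other way. It was at 83.9 and 86.2 in LNCaP and at 30.2 in resistant replicate 1, and resistant replicate 2 had no summit there. Upstream of ETV4, a region 10.2 kb from the gene was LNCaP-only, at percentiles 67.2 and 53.6. In lists of equal length LNCaP replicate 2 had no summit in it. At the 5′ end of DHX8 the LNCaP summits, at 95.1 and 97.5, overlapped those of the resistant libraries, at 94.7 and 96.5.

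ETV5 lies on chromosome 3 from 186046314 to 186109089 and is also transcribed toward lower coordinates. Its 5′ end had the highest percentiles of the 4 genes in every library, at 95.7 and 95.9 in LNCaP and 97.2 and 90.9 in the resistant libraries. The change of -1.72 points was within the pooled SD of 3.15, and percentiles this high leave little room for a rise. A resistant-only region lay 4.92 kb inside the gene, on chromosome 3 from 186103913 to 186104418. Its summits scored 39.4 and 22.7 and were at percentiles 76.1 and 72.7, whereas no LNCaP list had a summit in it. The region 11.1 kb inside ETV5 was lower in the resistant libraries, with percentiles of 95.6 and 91.5 in LNCaP and of 73.4 and 51.7 in the resistant libraries. Its change of -31.0 points exceeded the pooled SD of 11.1. The part of the gene farther than 11.1 kb from the 5′ end had no summit in any library.

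Upstream of ETV5, within the long noncoding RNA gene LOC105374257, regions 25.1 kb and 29.3 kb from the 5′ end were LNCaP-only. They were at percentiles 70.7 and 70.2 and at 58.9 and 67.2 in the LNCaP libraries. In lists of equal length the farther had a summit in LNCaP replicate 2 alone. A region 15.9 kb upstream was at 80.0 and 65.0 in LNCaP and at 12.4 in resistant replicate 1, with no summit in resistant replicate 2. Thus every region more than 1 kb upstream of ETV5 in the window was absent from both resistant libraries or, at 15.9 kb, found in 1 of them at a low percentile.

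ERG, the largest of the 4 genes with 294.5 kb, lies on chromosome 21 from 38367261 to 38661783 and is transcribed toward lower coordinates. Its window held 17 and 18 summits in LNCaP and 4 and 1 in the resistant libraries. Inside the gene there were 10 and 13 summits in LNCaP, 1 in resistant replicate 1 and none in resistant replicate 2. The windows of the PEA3 genes differed less. ETV1 had 13 and 11 summits in LNCaP and 7 in each resistant library, ETV4 had 13 and 11 against 8 and 4, and ETV5 had 9 and 9 against 7 and 3. Raw counts were lower in both resistant libraries for 61% of all protein-coding genes and higher for 1.45%, so counts were also expressed per 100000 summits of the library.

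Per 100000 summits, the ERG window held 14.5 and 16.8 summits in LNCaP and 5.64 and 2.19 in the resistant libraries, with means of 15.6 and 3.92. The change of -11.7 exceeded the pooled SD of 2.07, and it was -8.86 within repeat 1 and -14.6 within repeat 2. This measure was lower in both resistant libraries for 19.4% of protein-coding genes and higher in both for 46.2%. Among the 3280 protein-coding windows of 0.5 to 2 times the length of the ERG window, 2.84% changed by as much downward, and the median change was -0.613. The resistant cells had 0.251 times the LNCaP value at ERG. The ETV1, ETV4 and ETV5 windows changed by 1.94, -0.639 and 0.197 per 100000 summits, each within its pooled SD of 2.77, 1.33 and 1.69, and in each of them the groups overlapped. With equal numbers of summits the ERG window still held 6 and 5 summits in LNCaP and 1 in each resistant library.

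**Figure D3:**
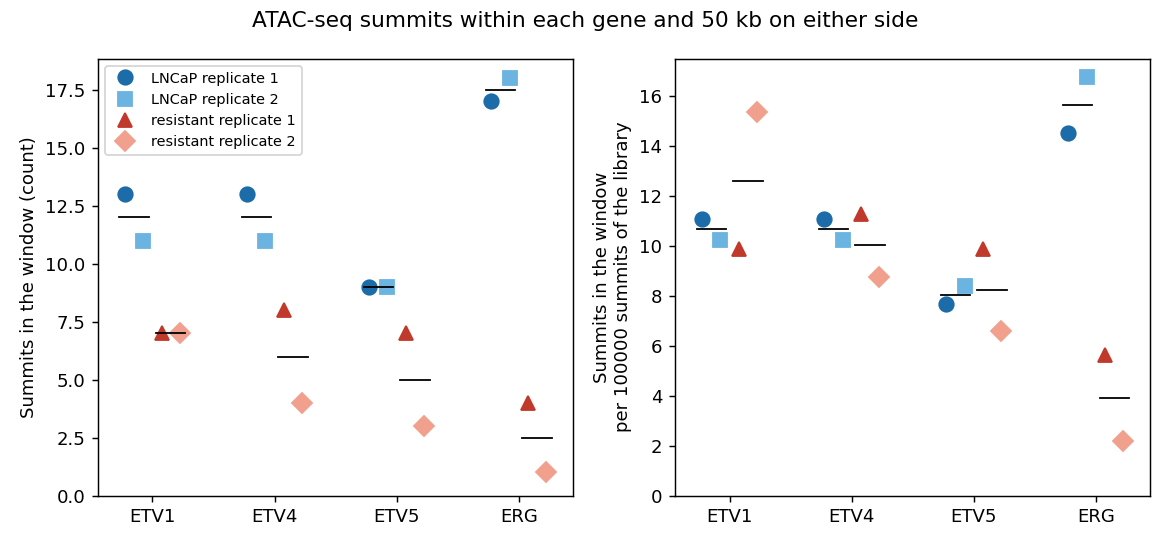
Number of summits in each gene's window (left) and the same number per 100000 summits of the library (right), with 1 point per library and a line at the mean of each cell line. The LNCaP points of ERG, at 17 and 18 summits, stand above the resistant points at 4 and 1 on both scales, whereas the points of the other genes overlap on the right.

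Of the 21 regions in the ERG window, 12 were LNCaP-only, where 27.5% of all regions are, 1 was shared and none was resistant-only. The share over all regions includes those at gene ends and was not computed for regions far from them, where most of the ERG regions lie. The number of LNCaP-only regions at ERG was 5 with a minimum score of 10 and 3 in lists of equal length, where 17.1% of all regions are LNCaP-only. The LNCaP-only regions were spread over the gene and its flanks and ranked in the middle of the lists, with mean LNCaP percentiles from 15.6 to 82.2 and a median of 44.5, where the median of all LNCaP-only regions was 47.1. The strongest lay beyond the 3′ end, inside LINC01423 on chromosome 21 from 38343639 to 38344142, at percentiles 78.6 and 85.8. Inside ERG the strongest were 173 kb from the 5′ end, at 77.5 and 85.4, and 69.9 kb from it, at 72.9 and 82.4. Regions 48.3 kb and 156 kb from the 5′ end were at 74.6 and 53.4 and at 37.3 and 69.3, and in lists of equal length each kept the summit of 1 LNCaP library. The only shared region of the window, 306 kb from the 5′ end and 236 bp from an end of LOC107985513, was lower in the resistant libraries. LNCaP had 84.7 and 90.8 there and the resistant libraries 57.3 and 38.7, which is -39.7 points with 9.78 as the pooled SD.

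The 5′ end of ERG was weak in all libraries. LNCaP replicate 2 had 2 summits there, the stronger at percentile 27.1, and the other 3 libraries had none within 3 kb, so no difference between the cell lines could be read. That summit lay 305 bp upstream of the start listed by RefSeq at 38660667. The 250 bases before this start, of which 77.2% are G or C against a median of 58.0% over all RefSeq promoter stretches, are shown because they are rich in CG and had no summit nearby in 3 of the 4 lists.
ERG start at 38660667, chr21:38660668-38660917: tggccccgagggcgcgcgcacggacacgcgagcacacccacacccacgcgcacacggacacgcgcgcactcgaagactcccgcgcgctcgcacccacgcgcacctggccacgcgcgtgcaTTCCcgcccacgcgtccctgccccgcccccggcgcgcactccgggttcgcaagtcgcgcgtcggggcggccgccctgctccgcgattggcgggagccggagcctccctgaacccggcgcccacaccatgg
The sequence is written 5′ to 3′ on the minus strand of GRCh38.p14 with the GGAA or TTCC core in capitals, which occurred 1 time, and it held 44 CG dinucleotides. None of the other starts listed for ERG had a summit of any library within 500 bp.

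The order of the genes by the percentile at the 5′ end was ETV5, ETV1, ETV4 and ERG in 3 libraries, with ETV4 above ETV1 in LNCaP replicate 2. ETV1 and ETV4 did not differ beyond their spread in LNCaP, with means of 66.6 ± 13.5 and 70.3 ± 7.96 (SD, n = 2 each). In the resistant libraries ETV5, at 94.1 ± 4.46, and ETV1, at 91.0 ± 2.75, also differed by less than their spread. Across the 11 shared regions of the windows, the median change was -6.49 percentile points against -4.65 for all 31833 shared regions. Its direction depended on the lists, since it was 1.58 with lists of equal length and 2.62 with percentiles taken among shared regions. The median of all shared regions was not computed under these settings, so these values have no background beside them. In 2 of the 11 the resistant libraries were higher, both at 5′ ends, in 3 lower and in 6 the groups overlapped. Of all shared regions 17.7% were higher and 41.8% lower, so the number of higher ones is near the background. These shares were not computed for shared regions at 5′ ends alone.

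The other 24 ETS family genes were examined in the same way, searching both gene ends where RefSeq's promoter table gave no strand. Their 5′ percentiles were higher in both resistant libraries for 3 genes, lower for 5 and overlapping for 16, with a median change of 0.491 points. With 20.5% of all protein-coding genes called in each direction, these counts are near or below the background. FLI1, the closest relative of ERG, was at 51.2 and 59.7 in LNCaP and had no summit near either end in the resistant libraries. ETS1, its neighbour on chromosome 11, was at 58.6 and 55.3 in LNCaP, at 12.4 in resistant replicate 1 and without a summit in resistant replicate 2. EHF, an epithelial ETS factor, was at 89.9 and 80.1 against 51.1 and 24.8. Their changes were -55.5, -50.7 and -47.0 points, each larger than its pooled SD, which was 4.28 for FLI1 and 6.40 for ETS1. In the other direction, ETV7 was at 19.2 and 20.4 in LNCaP and at 62.9 and 60.3 in the resistant libraries, a change of 41.8 points. No strand was given for FLI1, ETS1 and ETV7, so their values may come from either gene end. ELF5 changed by 14.7 and the repressor ERF by 11.5 points. Per 100000 summits, 14 of the 24 windows were higher in both resistant libraries and 5 lower, where 46.2% and 19.4% of all protein-coding genes were. The FLI1 window held 8.53 and 9.32 per 100000 in LNCaP and 8.47 and 2.19 in the resistant libraries, so that resistant replicate 1 was close to LNCaP. The ETS1 window held 11.9 and 13.0 against 5.64 and 4.38. The windows of FLI1 and ETS1 overlap in a short stretch, since the genes lie 97.6 kb apart. Whether a summit there was counted in both was not examined, so their counts may not be independent.

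**Figure D4:**
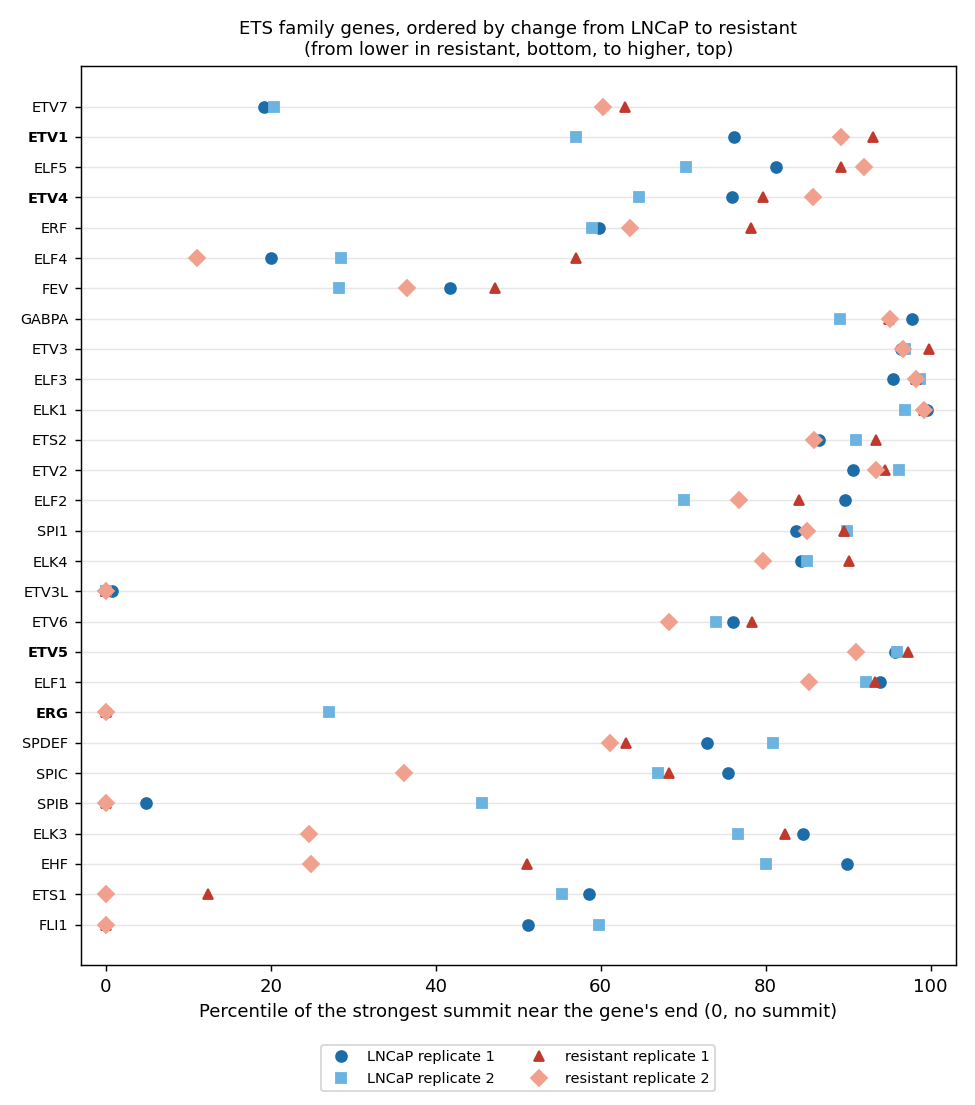
Percentile of the strongest summit near the gene end searched (horizontal axis, 0 where a library had no summit) for ETV1, ETV4, ETV5 and ERG (bold) and 24 other ETS family genes, ordered from the largest fall at the bottom to the largest rise at the top, with 1 point per library. FLI1, ETS1 and EHF have their resistant points left of their LNCaP points, and ETV7, ETV1, ELF5, ETV4 and ERF right of them.

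Of 19 genes that regulate the PEA3 factors, are fused to ETS genes or respond to them, the 5′ percentiles were higher in both resistant libraries for 3, lower for 5 and overlapping for 11, with a median change of 0. Both counts lie near the 20.5% of all protein-coding genes called in each direction. CIC, the repressor, went from 92.0 and 95.4 in LNCaP to 96.9 and 98.2, a change of 3.79 points. CANT1, a known 5′ fusion partner of ETV4, had no summit near either end in LNCaP and was at 71.0 and 45.5 in the resistant libraries. PLAU, a protease gene activated by ETS factors, changed by 24.5 points, from 0 and 13.6 to 43.1 and 19.4. Among feedback inhibitors of the MAPK pathway, SPRY4 and SPRED1 changed by -13.3 and -12.7 points and DUSP6 by -3.72. For SPRY1, SPRY2, SPRED2 and DUSP4 the groups overlapped, with differences of 3.44, -0.464, 6.57 and -0.455 points. Both gene ends were searched for DUSP4. VIM, which encodes vimentin, changed by -4.55 points, from 84.4 and 82.8 to 81.9 and 76.3. COP1, also among the 19 genes, changed by -4.33 points, from 95.1 and 95.3 in LNCaP to 90.2 and 91.6.

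The protein-coding genes whose windows were most like those of the 4 genes were named by the distance between their percentile-weighted summit counts over the 4 libraries, which is a description. For ERG these were SNTG2, with 19 and 19 summits in LNCaP and 6 and 2 in the resistant libraries, and DOCK2, with 19 and 19 against 2 and 2. For ETV1 they were PDXK and ZFAND2A, for ETV4 SSTR2 and TPP1, and for ETV5 SUN3 and SOS2.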

How the data were processed

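ATAC-seq libraries of LNCaP (n = 2) and of enzalutamide-resistant LNCaP cells (n = 2) were used as peak summit lists. The authors deposited these per library, without pooling replicates, and each summit carries a score in the form of −log10 of a p-value or q-value. Which of the 2 it is, the thresholds and the read filters are not given in the sources used here. The submitters' processing notes name the build hg38 and Bowtie2 2.2.5, SAMtools 1.6, MACS2 2.2.6, deepTools 3.5.2, HOMER 4.11 and edgeR 3.22.5. In each list the scores start just above the value for 0.05. Scores depend on depth, which is unknown, so they were only ranked within a library, ties taking the highest rank. Many weak summits share a score and hence a percentile.

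Genes came from RefSeq (GRCh38.p14). The 5′ end was the end given by the strand in the promoter table, found for 15843 protein-coding genes. Either gene end was searched for the other 4194, ETV4 and ETV5 among them, whose strand is stated from general knowledge, and a gene without a summit within 3 kb was given percentile 0. The gene table holds no exons, so introns and exons were not distinguished. The genes and lists were chosen with earlier results of these data known. Regions were named by rule: LNCaP-only or resistant-only regions with a mean percentile of at least 50, shared regions without overlap that changed by at least 10 points, and up to 3 genes per direction of each list. Some regulators and targets beyond this rule are given too. Likeness was the Euclidean distance of log2(1 + summed percentiles/100), among genes over 1 Mb away with windows of 0.5 to 2 times the length. The sample titles number the libraries of each line R1 and R2 and do not say whether these numbers are batches. Values within each repeat were computed as an alternative. Over 31833 shared regions the deviations of same-numbered libraries correlated at -0.0121.

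The alternatives were widening by 100 or 500 bp, flanks of 10 or 100 kb, 1 kb around the gene end, a minimum score of 10, lists cut to equal length, membership by at least 1 library, 1 summit per 500 bp, percentiles among shared regions, each library left out, and each repeat alone. Simulated lists holding 8000 planted regions were tested, and 100% came back in their class. The planted regions lay far apart, the summits within each lay close together, and none was missed or added at random. The outcome therefore checks the code only and does not show how well the classes hold in the real lists. Scripts ran in Python 3.11.15 (pandas 2.3.3, numpy 2.4.6, matplotlib 3.10.9, scipy 1.17.1).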

Additional observations from a re-analysis of the deposited data

How the results depend on the processing

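The fall in the ERG window and the higher 5′ percentiles of ETV1 and ETV4 kept their direction under every alternative run, and other values depended more on list length. In the full lists the ETV4 percentiles were those of summits at separate sites of the cell lines. Widening by 500 bp left 1 resistant-only region, at ETV5. With 10 kb on either side there were 14 LNCaP-only and 7 shared regions, and the ETV5 window changed by 2.78 per 100000 summits. With 100 kb the ETV4 window changed by -3.34. A minimum score of 10 left 13 LNCaP-only regions, the 5′ changes of ETV1, ETV4 and ERG were 48.2, 27.7 and 0 points, the ETV1 window changed by 5.24, and the median change of shared regions was -1.55. With lists of equal length there were 8 LNCaP-only and 4 resistant-only regions. The 5′ changes of ETV1, ETV4, ETV5 and ERG were then 69.7, 49.7, 3.67 and 0 points, the ETV4 and ETV5 windows each changed by -2.19, and the median change of shared regions turned to 1.58. Ranking among shared regions alone also turned that median, to 2.62, with ETV1, ETV4 and ETV5 at 49.4, 30.7 and 2.73 points and no value for ERG. The cause of these reversals was not tested, and the median of all shared regions was not computed under these settings. Counting a region for a cell line when at least 1 library had it gave 37 LNCaP-only, 7 resistant-only and 19 shared regions.

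Taking the repeat number as a replicate block, repeat 1 had 6 resistant-only and 19 shared regions, 5′ changes of 3.81, 1.56 and 0 points for ETV4, ETV5 and ERG, window changes of -1.21, 2.2 and -8.86 for ETV1, ETV5 and ERG, and a median of -0.359. Repeat 2 had 35 LNCaP-only and 4 resistant-only regions, 5′ changes of 21.1, -5.00 and -27.1 points, window changes of 5.10, -1.81 and -14.6, and a median of -16.8 for the same quantities. With 1 library left out in turn, LNCaP-only regions ranged from 23 to 32, resistant-only from 2 to 6 and shared from 11 to 18, the highest of the last pair without resistant replicate 2. The 5′ changes ranged from 14.9 to 34.0 for ETV1, 6.82 to 18.1 for ETV4, -4.87 to 1.43 for ETV5 and -27.1 to 0 for ERG, whose value rests on LNCaP replicate 2. Window changes ranged from -0.790 to 4.68 for ETV1, -1.90 to 0.621 for ETV4, -1.45 to 1.85 for ETV5 and -13.4 to -9.99 for ERG. The median ranged from -15.4, without resistant replicate 1, to -0.810, without LNCaP replicate 2. Depth is unknown, so a weak summit missing from a list does not show closed chromatin.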

Other observations

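MIPOL1, next to which ETV1 lies in LNCaP cells, had 29 and 23 summits in its window in LNCaP and 16 and 11 in the resistant libraries. Per 100000 summits the groups overlapped. Its 5′ percentiles, 88.5 and 86.4 in LNCaP against 95.1 and 87.0 in the resistant libraries, overlapped as well.

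In all 5 shared regions of the ETV1 window the summit positions of the resistant libraries lay outside the range of the LNCaP positions, with gaps from 2 to 25 bp, as was the case in 39% of all shared regions. The mean positions of the cell lines were 8.5 to 31.5 bp apart in these 5 regions, and 22 bp apart in the median over all shared regions.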
